A study of Mus musculus with 8 samples.

Results

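The xenobiotic enzymes of olfactory supporting cells are 9 mouse genes, Cyp2a5, Cyp2g1, Cyp2f2, Cyp1a2, Ugt2a1, Gstm2, Aldh1a1, Aldh1a7 and Fmo1, chosen by name as detoxification enzymes of the nasal epithelium. The deposited table of TPM, a transcript level scaled for gene length and library size, lists 8 of them among 27532 genes, and the level of Ugt2a1 was not analysed here because the table does not list it. All 8 listed genes had the mean level that testing asked for, 0.5 TPM, as did 20305 genes in all.

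The libraries were bulk RNA sequencing of dissected vomeronasal organs, paired chemosensory tubes at the base of the nasal septum, from 4 Tex15 heterozygous and 4 Tex15 knockout mice. Tex15 is a gene best known from the male germline, and the heterozygous animals were the controls, with no wild-type animal among them. Heterozygous replicate 1 was male, aged 11.4 weeks, and replicate 2 was female, aged 14.6 weeks. Heterozygous replicates 3 and 4 were female, aged 11.9 weeks. Knockout replicate 1 was female and knockout replicates 2 and 3 were male, all aged 11.9 weeks, and knockout replicate 4 was male, aged 12.1 weeks. The label numbers of heterozygous replicates 1 and 2 come before those of the other 6 animals, called the later-numbered animals here, and the numbers that end their titles, which have the form of dates, also differ from those of the other 6. Each library is labelled with its own animal, all mice were killed with carbon dioxide, and neither the mutant allele nor the strain is given in the labels.

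The nasal mucosa clears inhaled chemicals with enzymes of the kind that the liver uses. Phase I enzymes, among them the cytochromes P450 and the flavin monooxygenases, add or expose a reactive group on the molecule. Phase II enzymes such as glutathione transferases and glucuronosyltransferases then attach a water-soluble group. In the main olfactory epithelium these enzymes are best known from sustentacular cells, which support the sensory neurons, and from Bowman's glands beneath them, and aldehyde dehydrogenases of the Aldh1a family also make retinoic acid or clear aldehydes there.

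On build GRCm38, 3 of the genes lie in 1 P450 cluster: Cyp2g1 at chr7:26808892-26821205, Cyp2a5 at chr7:26835305-26843548 and Cyp2f2 at chr7:27119909-27133660, all on the plus strand. Aldh1a1 at chr19:20492715-20643465 on the plus strand and Aldh1a7 at chr19:20692953-20727562 on the minus strand are neighbours. Gstm2 lies at chr3:107981702-107986453, Cyp1a2 at chr9:57676937-57683703 and Fmo1 at chr1:162829561-162866610, each on the minus strand. All 8 are protein-coding.

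Cyp2a5 has a near copy in the same cluster, Cyp2a4. The start regions of this pair are shown because the copies were listed at very different levels but varied in parallel across the libraries. Whether reads counted for the wrong copy contribute to this was not tested. RefSeq start regions, 250 bases before to 50 bases after a gene's start on build GRCm38.p6, were found for 7 of the 9 genes. The Cyp2a5 window is chr7:26835089-26835388 on the plus strand and that of Cyp2a4 is chr7:26306942-26307241 on the plus strand. Capitals mark the nuclear factor I core site TTGGCA in Cyp2a5 with the aligned bases of Cyp2a4, and the TATA box TATAAA in both.
Cyp2a5: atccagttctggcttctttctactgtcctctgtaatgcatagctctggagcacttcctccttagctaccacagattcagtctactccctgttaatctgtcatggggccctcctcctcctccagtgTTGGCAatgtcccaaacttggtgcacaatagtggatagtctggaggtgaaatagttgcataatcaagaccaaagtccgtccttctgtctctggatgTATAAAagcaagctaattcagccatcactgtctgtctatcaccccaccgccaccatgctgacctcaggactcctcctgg
Cyp2a4: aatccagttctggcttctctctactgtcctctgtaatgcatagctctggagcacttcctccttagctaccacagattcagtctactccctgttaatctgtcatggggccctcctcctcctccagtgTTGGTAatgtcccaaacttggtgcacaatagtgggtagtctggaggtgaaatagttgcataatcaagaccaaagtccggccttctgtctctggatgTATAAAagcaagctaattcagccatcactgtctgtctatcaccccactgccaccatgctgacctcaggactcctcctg

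The aligned windows of Cyp2a5 and Cyp2a4 were identical at 294 of 299 bases (98.3%). Counted from 1 at the first base of the Cyp2a5 window, with the Cyp2a5 base first, the 5 differences were T18C, C130T, A160G, T204G and C269T, and C130T falls inside the capitalised core site, 121 bases before the start. Searched on both strands, the core site TTGGCA occurred in 14.1% of 32851 mouse start regions of the same length and TATAAA in 13.6%. The full nuclear factor I palindrome, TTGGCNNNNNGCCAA, which shares its first 5 letters with the core site, occurred in 12 of the 32851 regions and in none of those of the 7 genes. GCGTG, the core of the element bound by the aryl hydrocarbon receptor, occurred in 32.4% of the regions and in none of the 7 genes'. These matches describe letters in a window and are not binding measurements.

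The second pair of copies, Aldh1a1 and Aldh1a7, is shown for contrast, because their levels varied less in parallel. The stretch from 100 bases before to 50 bases after the start is chr19:20601868-20602017 on the plus strand for the downstream of 2 RefSeq starts of Aldh1a1 and chr19:20727507-20727656 on the minus strand for Aldh1a7, and capitals mark the bases that differ.
Aldh1a1: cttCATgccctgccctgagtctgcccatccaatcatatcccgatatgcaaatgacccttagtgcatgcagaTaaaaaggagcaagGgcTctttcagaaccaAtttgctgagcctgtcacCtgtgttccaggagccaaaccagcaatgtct
Aldh1a7: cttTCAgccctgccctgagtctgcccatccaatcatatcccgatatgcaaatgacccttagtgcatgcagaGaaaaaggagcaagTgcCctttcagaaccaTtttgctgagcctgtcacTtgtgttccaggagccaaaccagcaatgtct

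These 150 bases were identical at 142 positions (94.7%). Over the full windows, aligned without gaps, identity was 177 of 300 bases (59.0%). In the coding sequence Aldh1a1 and Aldh1a7 differed at 126 of 1503 bases (91.6% identical), and Cyp2a5 and Cyp2a4 at 23 of 1482 (98.4% identical). How the authors' counting shared reads between copies is not given in the sources used here, so the share of 100-base windows found in the transcripts of 1 gene only was computed. It was 87.9% for Cyp2a5, with 8.08% shared with Cyp2a4, and 97.6% or more for each of the other 7 listed genes, so the levels of Cyp2a5 and Cyp2a4 are the ones that the counting could most have mixed. For Ugt2a1, an odorant-conjugating glucuronosyltransferase, the share was 5.06%, with 67.8% of its windows shared with the overlapping Ugt2a2, which was listed at 2.15 to 5.19 TPM.

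The depth recovered from the steps between low TPM values was 17884212 to 26415743 reads per library, and the listed enzymes were covered by at least 55 reads in every library. Tex15 itself was at 2.52 ± 0.28 TPM (SD, n = 4) in heterozygous and 1.09 ± 0.16 TPM (SD, n = 4) in knockout libraries without overlap, although limma's adjusted p was 0.794 for it. Libraries correlated with each other at 0.918 to 0.967 over the genes tested (Pearson r of log2 values, a description across genes). 2 heterozygous libraries stood apart. Heterozygous replicate 1 had Omp, the marker of mature sensory neurons, at 66.6 TPM against 571 to 943 TPM elsewhere, while the vomeronasal neuron genes Gnai2 and Calr4 were within the range of the other libraries, and heterozygous replicate 2 is described beside the enzymes that it touches. In bulk tissue, fewer cells of a type and less RNA per cell cannot be told apart.

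The cytochromes P450 gave both the highest and the lowest levels of the group. Cyp2a5, which oxidises coumarin and nicotine, was at 947, 3056, 631 and 732 TPM in heterozygous replicates 1 to 4 and at 669, 882, 1016 and 1173 TPM in knockout replicates 1 to 4. It ranked 76th of all genes by its mean level, and the groups overlapped: heterozygous replicate 2 was at 3.46 times the median of the other 7 libraries, while heterozygous replicate 3 lay below every knockout and replicate 4 below 3 of the 4. Cyp2f2, known for bioactivating naphthalene in the airway, was at 592, 986, 609 and 728 TPM in heterozygous replicates 1 to 4 and at 529, 455, 1128 and 1255 TPM in knockout replicates 1 to 4. Its lowest and its highest library were both knockouts.

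Cyp2g1, a P450 known for its near restriction to the olfactory mucosa, was the most variable of the 8 genes. Its level was 77.7, 758, 20.1 and 84.7 TPM in heterozygous replicates 1 to 4 and 44.3, 26.5, 28.9 and 37.4 TPM in knockout replicates 1 to 4. Heterozygous replicate 2 was 20.3 times the median of the other 7 libraries, and without it the highest library was still 4.22 times the lowest. Heterozygous replicates 1, 2 and 4 lay above every knockout. Replicate 3, the lowest of all 8 libraries, lay below every knockout, and the overlap of the groups rests on it.

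Cyp1a2, a P450 of aromatic amines and caffeine that the aryl hydrocarbon receptor induces in liver, followed the same order of libraries at a lower level. It was at 9.29, 51.2, 2.98 and 10.4 TPM in heterozygous replicates 1 to 4 and at 8.21, 4.19, 5.1 and 7.60 TPM in knockout replicates 1 to 4. Heterozygous replicate 2 was at 6.74 times the median of the other 7 libraries and replicate 3 was again the lowest. Here too heterozygous replicates 1, 2 and 4 lay above every knockout and replicate 3 below every knockout. Its sister gene Cyp1a1 was listed at 0.46 to 1.52 TPM.

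Fmo1, a flavin monooxygenase that oxygenates nitrogen and sulphur atoms, had almost the same mean in both groups, 19.7 ± 6.95 TPM in the controls and 19.7 ± 2.26 TPM in the knockouts (SD, n = 4 each). It was at 13.1, 29.0, 20.9 and 15.9 TPM in heterozygous replicates 1 to 4 and at 18.8, 17.9, 23.0 and 19.2 TPM in knockout replicates 1 to 4, so the knockouts lay within the heterozygous range.

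Aldh1a1, which oxidises retinaldehyde to retinoic acid, was at 243, 418, 243 and 194 TPM in heterozygous replicates 1 to 4 and at 187, 149, 372 and 287 TPM in knockout replicates 1 to 4. Heterozygous replicate 2 was the highest and knockout replicate 3 came next, and the ranges overlapped over most of their width. Aldh1a7, its rodent copy, was at 25.4, 60.6, 40.8 and 43.2 TPM in heterozygous replicates 1 to 4 and at 37.7, 25.4, 41.5 and 33.9 TPM in knockout replicates 1 to 4. Here the lowest libraries were heterozygous replicate 1 and knockout replicate 2, at almost the same level.

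Gstm2, the only conjugating enzyme of the listed 8, transfers glutathione to reactive compounds. It was at 81.0, 116, 88.6 and 89.5 TPM in heterozygous replicates 1 to 4 and at 71.7, 62.3, 98.6 and 102 TPM in knockout replicates 1 to 4. The 8 libraries lay within 1.87-fold of each other, the narrowest range of the group, and heterozygous replicate 2 was the highest. Its neighbour Gstm1 was 3.46 to 5.49 times as high in each library.

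**Figure D1:**
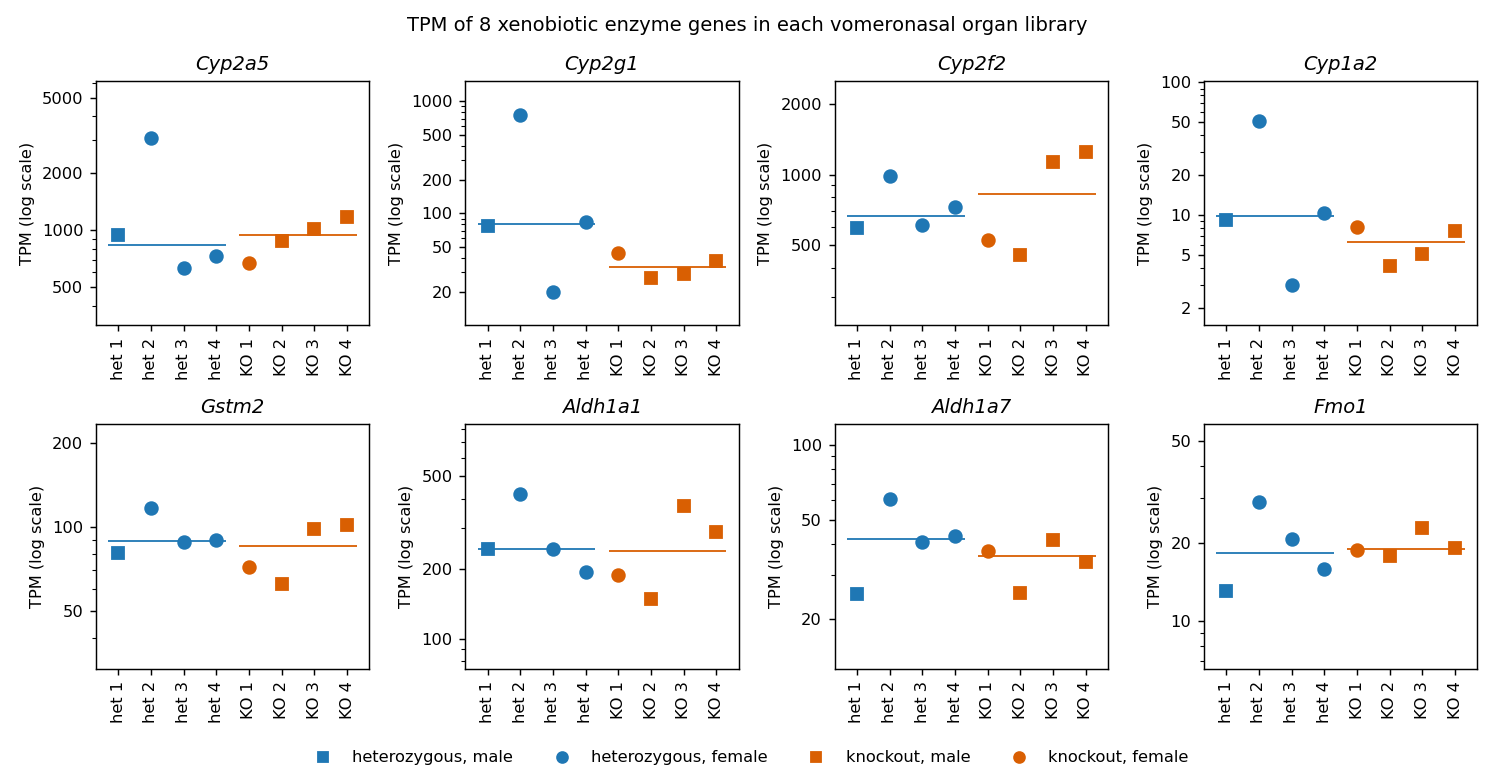
TPM of each listed enzyme (log axis, 1 panel per gene) in the 8 libraries; colour gives genotype, shape gives sex and the horizontal lines are group medians. The groups overlap in all 8 panels, and heterozygous replicate 2 is the highest point in 7 of them, all but Cyp2f2.

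By mean TPM the order was Cyp2a5, Cyp2f2, Aldh1a1, Cyp2g1, Gstm2, Aldh1a7, Fmo1 and Cyp1a2. Neighbours in this order were clearly apart in 2 places: Cyp2f2 was above Aldh1a1, and Gstm2 above Aldh1a7, in 8 of 8 libraries without overlapping ranges. Aldh1a7 was above Fmo1 in 8 of 8 libraries, but their ranges overlapped. Cyp2a5 was above Cyp2f2 in 6 of 8 libraries, so these neighbours do not differ beyond their spread. The place of Cyp2g1 above Gstm2 rests on heterozygous replicate 2, the 1 library of 8 in which it was the higher. Cyp2a5 and Cyp2f2 together held 73.8% to 83.3% of the summed level of the 8 genes in each library. That sum was 2754 ± 1819 TPM (SD, n = 4) in heterozygous and 2204 ± 710 TPM (SD, n = 4) in knockout libraries, and it was 5474 TPM in heterozygous replicate 2 against 1566 to 2915 TPM in the other 7.

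Heterozygous replicate 2 was the highest of the 8 libraries for 7 of the 8 enzymes, whereas it was the highest for 3.34% of the 11587 genes at or above 5 TPM on average. Over those genes its median ratio to the median of the other 7 libraries was 0.633, and over the 8 enzymes it was 1.67. Scaling each library by the median ratio of its genes brought the median over the 11587 genes to 1.03. The ratio was then 5.39 for Cyp2a5, 37.3 for Cyp2g1 and 13.5 for Cyp1a2. The other 5 enzymes were then at 2.24 to 3.23 times the median of the other 7 libraries, Cyp2f2 included.

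Other genes moved with the enzymes in that library, and their part in the result was not tested. Of 16 sustentacular markers, all listed, 6 were highest in heterozygous replicate 2 and 4 were lowest. Ermn, a defining marker of sustentacular cells, was at 24.0 TPM there and at 1.5 to 4.84 TPM in the other 7 libraries, and Sult1c1, a sulphotransferase, at 509 against 65.5 to 130 TPM. Sox2, Krt8 and Krt18, which epithelial supporting cells share with other epithelia, were at 80.2, 456 and 561 TPM, within the range of the other libraries. The summed level of the sustentacular list, in which the reductase Cbr2 weighs most, was 4820 to 7573 TPM in heterozygous and 4217 to 8108 TPM in knockout libraries, with heterozygous replicate 2 at 7573 TPM.

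For Bowman's gland, 8 of 14 listed markers were highest in heterozygous replicate 2 and 4 were lowest. Among the latter Dmbt1, a secreted mucosal protein gene, was at 312 TPM against 2051 to 3822 TPM elsewhere. The list summed to 53234 TPM there, to 4956 to 39530 TPM in the other 7 libraries and to 7362 to 36202 TPM in the knockouts, and its odorant-binding protein gene Obp1b alone ran from 90.6 TPM in heterozygous replicate 3 to 47099 TPM in heterozygous replicate 2. Bpifb9b, a secreted protein gene of that list, was at 1926 TPM against 14.2 to 252 TPM elsewhere. Of 14 listed respiratory and ciliated markers 13 were tested and 10 were highest in that library. The list summed to 43565 TPM there against 12743 to 22250 TPM in the other 7. Scgb1a1, the club cell secretoglobin, was at 3.07 TPM there, which is 21 reads, and listed at 0 in the other 7. Its mean was too low for testing. The ciliated-cell regulator Foxj1 was at 129 TPM, inside the range of 76.3 to 238 TPM of the other libraries.

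Neuronal and vascular markers also differed in heterozygous replicate 2. Cnga2, a channel subunit of main olfactory neurons, was at 27.3 TPM against 1.27 to 13.5 TPM, and olfactory receptor genes summed to 393 TPM against 65.4 to 181 TPM. Of the 14 main olfactory neuron markers, 5 were highest and 5 were lowest there, the latter with Rtp1 at 85.4 against 98.8 to 179 TPM and Umodl1 at 47.5 against 61.4 to 135 TPM. As a whole they summed to 504 TPM, within the 376 to 641 TPM of the other libraries. All 5 erythrocyte genes were highest there, at a sum of 20930 TPM against 3900 to 14334 TPM. Of 7 listed vomeronasal gland genes, 5 were lowest and 1 was highest there, and the list, led by Obp2b, Obp2a and Lcn3, summed to 59198 TPM against 107356 to 248343 TPM. As deposited, heterozygous replicate 2 was the lowest library for 59.0% of the 11587 genes at or above 5 TPM. Counts of lowest values are read against that share, although the lists were counted from 0.5 TPM up. It was the lowest for 8 of 11 vomeronasal sensory neuron genes, 7 of 7 endothelial genes, 5 of 8 fibroblast and cartilage genes, 5 of 10 immune genes, 4 of 7 basal cell genes and 4 of 7 ensheathing glia genes. After scaling, the median ratio to the other libraries was 1.55 for the sustentacular list, 3.15 for the Bowman's gland list and 3.34 for the respiratory and ciliated list. The microvillar and tuft cell list was at 1.59, the vomeronasal sensory neuron list at 0.911 and the immune list at 0.782. The median over the 11587 genes was 1.03. The erythrocyte list was the highest of the lists at 5.08. The lowest were the fibroblast and cartilage list at 0.426, the vomeronasal gland list at 0.470 and the endothelial list at 0.571.

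The label of supporting cells could thus be checked in part. General epithelial markers of the sustentacular list were well expressed in all 8 libraries, while Ermn was under 5 TPM in 7 of them. In those 7 libraries Sult1c1 of the same list was at 65.5 to 130 TPM and Cbr2 at 2479 TPM or more. Whether the enzymes' transcripts came from supporting cells, glands, or olfactory or respiratory epithelium taken with the organ cannot be told apart in these bulk libraries.

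**Figure D2:**
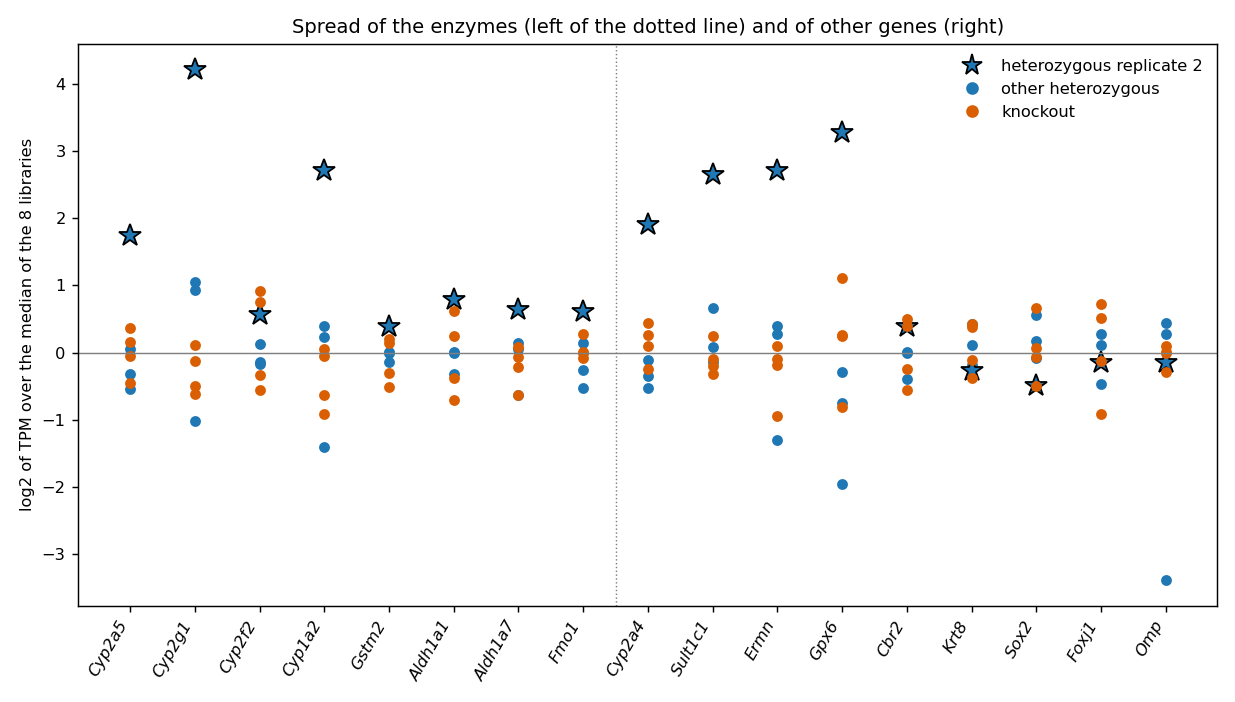
log2 of each library's TPM over the gene's median of the 8 libraries, for the 8 listed enzymes (left of the dotted line) and for Cyp2a4 and named marker genes (right); the star is heterozygous replicate 2. The star lies far above the other points for Cyp2g1, Cyp1a2, Cyp2a5, Cyp2a4, Sult1c1, Ermn and Gpx6 and among them for Cyp2f2, Cbr2, Krt8, Foxj1 and Omp.

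Genotype was tested on log2(TPM + 0.5) with limma, with sex as a second term, and differences are given relative to the median gene tested, which was 0.19 higher in knockouts as deposited and 0.01 lower after median-ratio scaling. None of the 8 enzymes was called at an adjusted p under 0.05 (Benjamini-Hochberg over 20305 genes, adjusted p = 1 for each after rounding), against 119 genes (0.586%) called in all. At an unadjusted p under 0.05 none of the 8 passed, against 3.1% of all genes, and none had groups without overlap, against 1.4%. With 8 genes, counts of 0 are no lower than these background shares give. No genotype difference beyond the spread between animals was found in these enzymes, and the intervals were wide.

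The largest estimate was that of Cyp2g1, at -1.51 (SE 0.75, 95% interval -3.07 to 0.06, log2 knockout over heterozygous relative to the median gene). Its unadjusted p was 0.0951 by limma's test, which is of the difference before the median is subtracted, over 8 libraries. Cyp1a2 was at -0.81 (95% interval -2.12 to 0.50), Cyp2a5 at -0.51 (-1.45 to 0.42), Aldh1a1 at -0.43 (-1.22 to 0.35) and Gstm2 at -0.37 (-1.06 to 0.32). Cyp2f2 was at -0.18 (-0.99 to 0.63), Aldh1a7 at -0.17 (-0.90 to 0.55) and Fmo1 at 0.01 (-0.74 to 0.77). The median over the 8 genes was -0.40, with 7 of them below the median gene. Without heterozygous replicate 2 it was -0.11, with 5 of 8 below, and with a term for earlier against later-numbered animals all 8 were above the median gene, at 0.24 to 1.38, so no direction is read from the main value.

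The estimates moved with the libraries used. Cyp2g1 was at -1.72 (95% interval -3.15 to -0.29) without the sex term, with an unadjusted p of 0.0333 and an adjusted p of 1 by limma, and at -2.19 without heterozygous replicate 3, with a limma adjusted p of 0.16. Without heterozygous replicate 1, Cyp2a5 was at -0.67 and Cyp2f2 at -0.45. Without heterozygous replicate 2 the estimate of Cyp2g1 was -0.76 (95% interval -1.59 to 0.08) and that of Cyp2a5 was -0.05 (-0.67 to 0.56), while Cyp2f2 and Aldh1a7 turned to 0.04 and 0.03. Among the 6 later-numbered animals, fitted without a sex term, Cyp2a5 was at 0.62 (0.03 to 1.22) with an unadjusted p of 0.144 and an adjusted p of 0.964 by limma, and Cyp2g1 was at -0.11 (-1.02 to 0.80), whereas with the sex term it was at 0.42 in the same 6 animals. Both earlier animals were heterozygous, so no comparison of genotypes is possible within them. No enzyme was called in any of the 21 alternative fits, where that 0.16 was the lowest adjusted p by limma.

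**Figure D3:**
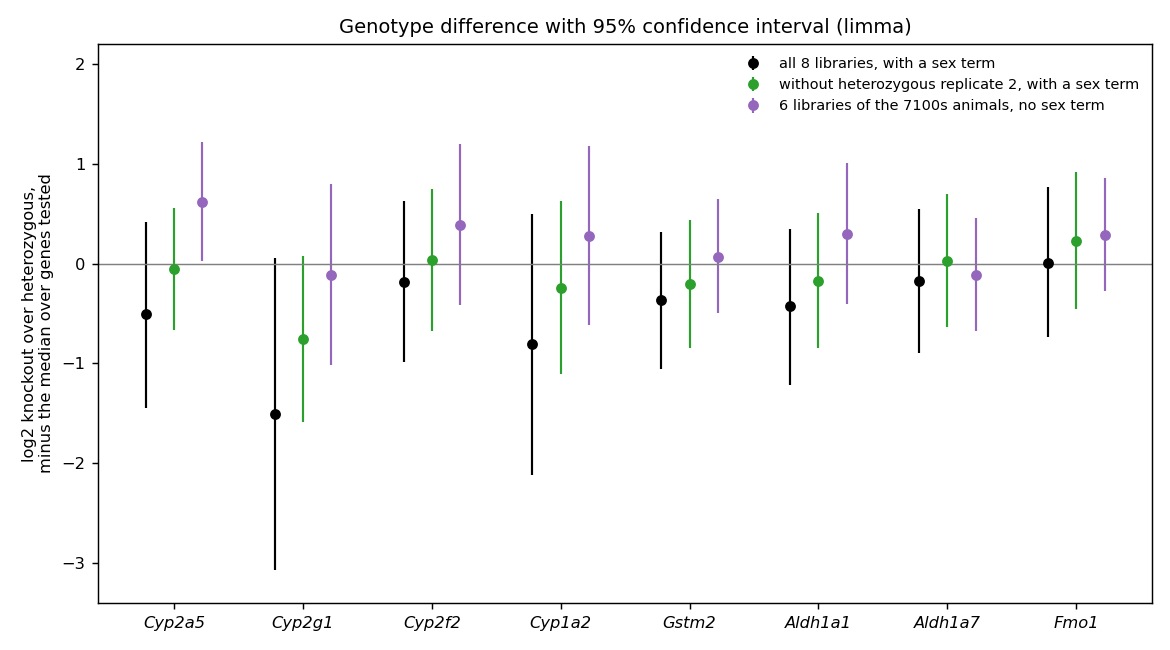
Genotype difference of each listed enzyme (log2 knockout over heterozygous minus the median over genes tested) with its 95% confidence interval from limma, from 3 fits that differ in libraries and, for the last, in the sex term. The estimate of Cyp2g1 is -1.51 with all 8 libraries and -0.76 without heterozygous replicate 2, both with the sex term, and -0.11 among the 6 later-numbered animals without it.

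Several P450 and conjugating enzymes are known to differ by sex in rodent liver, so the sex term was read as well. None of the 8 was called by sex (limma, adjusted p = 1 after rounding, against 10 genes or 0.0492% in all), and none passed an unadjusted p of 0.05, against 2.27% of all genes. Relative to the median gene, 4 were higher and 4 lower in males. All 8 were lower with the animal-series term and 7 of 8 higher without heterozygous replicate 2, so no direction is read from this split. Aldh1a7, at -0.46 (SE 0.35, 95% interval -1.18 to 0.27), had the lowest unadjusted p, 0.136 by limma over 8 libraries, and was at -0.25 without heterozygous replicate 2 and at -0.79 with the animal-series term. Without heterozygous replicate 2, Cyp2a5 was at 0.73 (0.11 to 1.34) in males over females with an unadjusted limma p of 0.0799 and an adjusted p of 1. Sex and genotype overlap in this design, since the males were 1 of the 4 controls and 3 of the 4 knockouts.

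The enzymes did not vary as 1 block. Of the 28 pairs, all had a positive Pearson r over the 8 libraries on the log2 scale (median 0.59). Without heterozygous replicate 2, however, there were 19 positive and 9 negative pairs (median 0.25). TPM were taken as deposited, with median-ratio scaling factors from 0.662 to 1.39 between libraries, and no r over other gene pairs was computed as background. Cyp2g1 and Cyp1a2 kept 1 order of libraries throughout: r was 0.985 and rho 1, with an exact permutation p of 2.48e-05 for r (two-sided, n = 8) and 4.96e-05 for rho, and adjusted over the 28 pairs 0.000694 and 0.00139. Leaving out heterozygous replicate 2 gave r = 0.934, and leaving out the 2 libraries farthest from the median of Cyp2g1 gave 0.919. Among the 6 later-numbered animals r was 0.937.

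A second pair was Cyp2f2 and Gstm2, with r = 0.878 and rho = 0.929 (exact permutation p = 0.00379 and 0.00223, n = 8, two-sided, adjusted over 28 pairs 0.0354 and 0.0313). Its r was 0.901 without heterozygous replicate 2 and 0.974 without the 2 farthest libraries, and 0.906 among the 6 later-numbered animals. Gstm2 and Aldh1a1 followed at r = 0.906 and rho = 0.881 (exact permutation p = 0.00241 and 0.00724, n = 8, two-sided, adjusted 0.0337 and 0.0676), with r = 0.856 without heterozygous replicate 2 and 0.742 without the 2 farthest libraries, and 0.869 among the later-numbered animals. Cyp2a5 and Cyp2g1, both in the same gene cluster, had r = 0.827, which was 0.06 without heterozygous replicate 2 and -0.07 among the later-numbered animals, and so rests on that library. The same animals and the same tissue pieces lie behind all 28 pairs. The permutation p is against no pairing of libraries only. Gstm2 was nearer to Cfap97d2 (r = 0.991) than to Cyp2f2 or Aldh1a1, so these pairs are not read as particular to the enzymes.

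**Figure D4:**
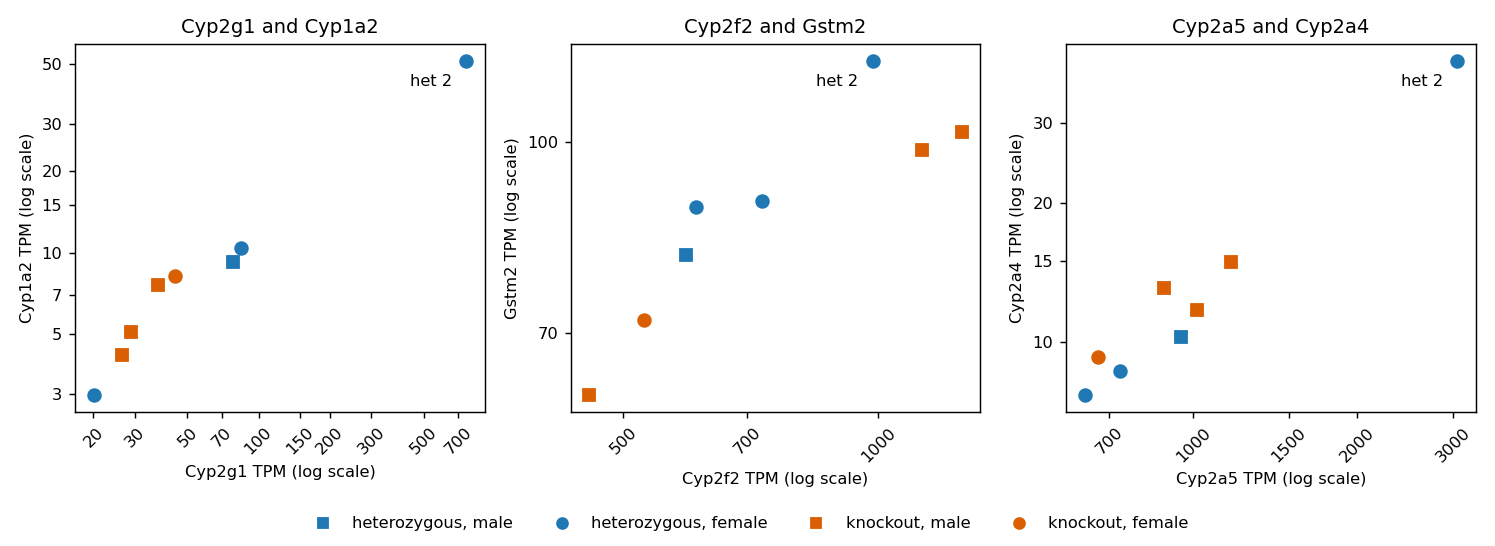
TPM of 3 pairs of genes in the 8 libraries (log axes; colour gives genotype and shape gives sex; heterozygous replicate 2 is marked het 2). Cyp2g1 and Cyp1a2 rank the libraries alike, and Cyp2f2 and Gstm2 do so apart from heterozygous replicate 2. Cyp2a5 with its copy Cyp2a4 keeps a ratio of 67.3 to 92.6, and reads shared between these copies were not tested for.

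Ratios within a library told the pairs of copies apart. Cyp2a5 was 67.3 to 92.6 times as high as Cyp2a4, a 1.38-fold range over libraries in which Cyp2a5 itself covered a 4.84-fold range. Cyp2a4 was covered by 122 to 1020 reads, and 11.2% of its 100-base windows were shared with Cyp2a5. Whether reads of Cyp2a5 were counted for Cyp2a4 was not tested. Aldh1a1 was 4.50 to 9.59 times as high as Aldh1a7, a 2.13-fold range, although Aldh1a1 itself covered only a 2.81-fold range. The ratio of Cyp2g1 to Cyp1a2 was 6.74 to 14.8 in heterozygous and 4.92 to 6.33 in knockout libraries. This is 1 of 6 ratios computed and was singled out after its values were seen, so no test is given for it.

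Among genes averaging 5 TPM or more, those most like the mean standardised profile of the 8 enzymes over the 8 libraries were Acsm1, Sec14l3, Cfap126, Serpinb1b, 1700013F07Rik, Gm11992, 3300002A11Rik and Dapl1, with r of 0.956 to 0.978. Acsm1, an acyl-CoA synthetase, was at 9.52, 23.4, 11.1 and 11.8 TPM in heterozygous replicates 1 to 4 and at 8.81, 6.66, 14.8 and 13.3 TPM in knockout replicates 1 to 4. For single enzymes the nearest gene was Cyp2a4 for Cyp2a5 (r = 0.981), AU021092 for Cyp2g1 (0.989), Cyp2g1 for Cyp1a2 (0.985), Cbr2 for Cyp2f2 (0.956) and Cfap97d2 for Gstm2 (0.991). It was Cyb5a, the electron donor cytochrome b5, for Aldh1a7 (0.992), Lrrc74b for Aldh1a1 (0.975) and Asgr1 for Fmo1 (0.932). These correlations are descriptions over 8 libraries, and reads shared between Cyp2a5 and Cyp2a4 were not tested for.

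Other genes of the detoxification pathway were taken from lists of enzymes, transporters and regulators. Of 46 further phase I genes 45 were listed and 41 tested, and of 50 further phase II genes 45 were listed and 43 tested. None of these 84 was called by genotype or by sex (limma, adjusted p under 0.05) and none had an unadjusted p under 0.05 by genotype, against 0.586%, 0.0492% and 3.1% of all genes. Relative to the median gene, 24 phase I genes were lower and 17 higher in knockouts (median -0.07). Of the phase II genes 37 were lower and 6 higher (median -0.22). These splits come from the main fit alone, and the part of heterozygous replicate 2 in them was not tested, so no direction is read. The median of the 8 enzymes was -0.40, and -0.11 without heterozygous replicate 2. The highest phase I genes were Cbr2 at 3808 TPM on average, the carboxylesterase Ces1d at 158 TPM and the P450 reductase Por, which passes electrons to P450 enzymes, at 154 TPM. The highest phase II genes were the glutathione transferases Gsto1, Gsta4 and Gstm1, at 695, 545 and 400 TPM on average.

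Of 12 transporters of such compounds 11 were tested, and of 25 regulators, among them the aryl hydrocarbon receptor and nuclear factor I genes, 22 were tested, with none called by genotype, against 0.586% of all genes. The highest of the transporters, Abcc1, Slc22a18 and Abcc4, were at 21, 17.3 and 14.4 TPM on average. Of the regulators, Nfe2l2, which induces glutathione genes, was at 91.3 TPM, Rarg at 30.6 TPM and Nfix at 20.9 TPM. Their median genotype differences relative to the median gene were 0.17 and 0.11. Heterozygous replicate 2 was the lowest library for 8 of the transporters and 16 of the regulators tested and the highest for none. Of all genes at or above 5 TPM, 59.0% were lowest and 3.34% highest there, while these lists were taken from 0.5 TPM up. The counts are therefore not read as a trait of the lists, and the part of that library in these medians was not tested.

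Many but not all enzymes of these lists were also high in heterozygous replicate 2. That library was the highest for 23 of the 84 phase I and II genes and over 2 times the median of the other 7 for 15 of them. It was the lowest for 5 phase I and 9 phase II genes. The median ratio over the 84 was 0.972. Of all genes at or above 5 TPM, 3.34% were highest and 59.0% lowest there, with a median ratio of 0.633. The 84 were taken from 0.5 TPM up, with Nat1 at 0.57 TPM on average, so the gene sets are unlike. The share of all genes over 2 times was not computed. After scaling, the medians were 1.83 for phase I and 1.46 for phase II genes, beside 1.03 for all genes at or above 5 TPM. Beside Sult1c1, the sulphotransferase Sult1d1 was at 203 TPM there against 43.4 to 73.4 TPM, and the aldehyde oxidase Aox2 at 21.3 against 5.66 to 12.6 TPM. Por was at 128 TPM against 112 to 214 TPM elsewhere.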

How the data were processed

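The authors deposited 1 table of TPM values with 1 column per library, each summing to 1000000. Per the submitters' processing notes, Trim Galore 0.6.5, cutadapt 5.1, STAR 2.7.11b and deepTools 3.5.5 were used with builds mm10 and GRCm38. The counting program is not given in the sources used here. Per the labels' protocols, RNA was Trizol-extracted, passed an integrity limit, was polyA-selected and made into directional paired-end libraries.

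Reads were recovered from TPM steps with GENCODE M21 exon lengths: 97.6% to 98.1% of values under 30 reads were within 0.05 of a whole read. TPM has no counting interval, and for a gene of 2 kb, 3 reads were 0.0916 to 0.163 TPM. Genes with mean TPM of at least 0.5 were fitted as log2(TPM + 0.5), which understates the change of low genes, with limma 3.58.1 in R 4.3.3 (lmFit, eBayes with trend, genotype and sex, Benjamini-Hochberg). With these terms heterozygous replicate 1 and knockout replicate 1 each weigh 0.5 in the genotype difference and the other libraries 0.167. Correlations and permutations used scipy 1.17.1. Alternatives are in the closing section. The members, lists, named genes (all members, the highest 3 of each list, the 8 nearest profiles) and tests were chosen with earlier results of these data known, and the GCGTG and TATAAA searches, other named genes, ratios and windows were added after the values were seen.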

Additional observations from a re-analysis of the deposited data

Results flagged for a closer look

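On untransformed TPM, in 3 of 16 gene and group combinations tested, 1 of the 4 libraries lay further from the rest than Dixon's 95% critical value for 4 samples allows, and each time it was heterozygous replicate 2. The gap to the next library as a share of the range was 0.912 for Cyp2g1, 0.870 for Cyp2a5 and 0.845 for Cyp1a2. For normally distributed values chance alone marks about 1 in 20 such groups, which untransformed TPM need not follow, and the 3 concern the same library. On the log2(TPM + 0.5) scale the shares were 0.606, 0.743 and 0.576, and 0 of the 16 combinations passed the critical value, so the marks depend on the scale. This animal was also the oldest, at 14.6 weeks against 11.4 to 12.1 weeks, and 1 of the 2 animals with earlier label numbers. Age, animal number and the date-like ending of the title cannot be told apart from this library. Both earlier animals were heterozygous, so animal number and title ending cannot be set against genotype within them.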

How the results depend on the processing

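No enzyme was called by genotype or sex under any setting run (21 for genotype, 18 for sex), with lowest limma adjusted p of 0.16 and 0.787. The cause of the shifts below was not tested. Values are log2 differences relative to the median gene. By genotype with an animal-series term, Cyp2a5 was 0.99, Cyp2g1 1.24, Cyp2f2 0.42, Cyp1a2 1.38, Gstm2 0.24, Aldh1a1 0.47, Aldh1a7 0.48 and Fmo1 0.72. In the later-numbered animals with a sex term, which sets knockout replicate 1 alone against heterozygous replicates 3 and 4, they were Cyp2a5 0.30, Cyp2g1 0.42, Cyp2f2 -0.01, Cyp1a2 0.82, Gstm2 0.01, Aldh1a1 0.11 and Aldh1a7 0.17, and without that term Cyp2a5 0.62, Cyp2f2 0.39, Cyp1a2 0.28, Gstm2 0.07, Aldh1a1 0.30, Cyp2g1 -0.11 and Aldh1a7 -0.11. Fmo1 was -0.01 with a pseudocount of 0.1, median-ratio scaling or limma-voom on recovered reads, and -0.09 without the sex term. Without both the sex term and heterozygous replicate 2, Cyp2a5 was 0.26, Cyp2f2 0.24 and Aldh1a1 0.04 (this setting and limma-voom were chosen after seeing the data). By sex with the animal-series term, Cyp2a5 was -0.49, Cyp2f2 -0.05, Gstm2 -0.24, Aldh1a1 -0.24, Cyp2g1 -1.81 and Cyp1a2 -1.47.

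Leaving out 1 library gave ranges by genotype of -2.19 to -0.76 for Cyp2g1, -1.36 to -0.24 for Cyp1a2, -0.50 to -0.20 for Gstm2, -0.79 to -0.05 for Cyp2a5, -0.57 to -0.17 for Aldh1a1, -0.45 to 0.08 for Cyp2f2, -0.31 to 0.03 for Aldh1a7 and -0.10 to 0.23 for Fmo1, and by sex of -1.11 to 0.33 for Cyp2g1, -0.92 to 0.21 for Cyp1a2, -0.33 to 0.01 for Fmo1, -0.02 to 0.73 for Cyp2a5, -0.05 to 0.25 for Gstm2, 0.00 to 0.52 for Cyp2f2, -0.60 to -0.25 for Aldh1a7 and 0.08 to 0.48 for Aldh1a1. It gave 83 to 254 genes called by genotype and 11 to 91 by sex, against 119 and 10 with all 8. Called by genotype were 72 with no filter, 371 in the later-numbered animals and 184 there without the sex term, and by sex 178 in the later-numbered animals. The split of genotype calls was 43 higher and 76 lower, 28 and 127 with median-ratio scaling, and 18 and 143 with limma-voom.

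With the library number as a replicate block, 128 genes were called by genotype, 22 by sex and 0 of the enzymes by either. Same-numbered libraries deviated with correlations of -0.0606, 0.0271, 0.0971 and -0.000115, so the numbers are read as names. Depth limited none of the 8 enzymes, at 55 reads or more.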
